A study of Homo sapiens with 2 samples.

Results

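The 10 genes described here form the core of interleukin-7 receptor and JAK-STAT signaling: the receptor chains IL7R and IL2RG, the kinases JAK1 and JAK3, the transcription factors STAT3, STAT5A and STAT5B, the inhibitors SOCS1 and CISH, and the target kinase PIM1. They were taken by name from the 20033 protein-coding genes of GENCODE 44. A NUDT21 peak was assigned to a gene when its nearest edge was at most 3000 bp from a transcript start of that gene (a promoter peak), over the gene body, or within 1000 bp past the gene end. By this rule the genes held 63 of the 97162 peaks of replicate 1 and 48 of the 68532 peaks of replicate 2.

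The peaks came from CUT&Tag, in which an antibody to NUDT21 tethers a transposase that cuts nearby chromatin, in 2 biological replicates of J.gamma1, a PLC-gamma1-deficient derivative of Jurkat cells, which come from a T-cell acute lymphoblastic leukemia (T-ALL). The cells carried no treatment or knockdown and both replicates form 1 group, with no control sample among those analysed, so all values are descriptions of 1 cell line without a test between conditions. NUDT21 is a subunit of the cleavage factor that binds UGUA words in RNA and directs the choice of polyadenylation site. Promoter peaks were called in both replicates at 6 of 10 T-cell marker genes and at 3 of 10 markers of other cell types. Over all protein-coding genes the share was 57.0%, near that of the T-cell markers, and a peak does not measure expression.

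In lymphocytes, interleukin-7 joins IL7R to the common gamma chain IL2RG, which brings together JAK1, carried by IL7R, and JAK3, carried by IL2RG. The kinases phosphorylate the receptor and the STAT proteins, which pair, enter the nucleus and bind palindromic DNA words. CISH and SOCS1 are induced by this signal and dampen it, PIM1 is a survival kinase among its targets, and the pathway is known for sustaining T-cell precursors and for activating mutations in T-ALL.

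The sequences below show the promoter without a peak (IL7R), the promoter of its partner chain with a peak in both replicates (IL2RG), the promoter of the inhibitor with the highest start peaks (CISH), and the site between the STAT5A and STAT3 gene ends with the highest fold at the 10 genes in replicate 1. The promoters are 300-base windows around the start (RefSeq, GRCh38.p14, strand of the gene), at chr5:35856641-35856940 (plus strand), chrX:71111528-71111827 (minus strand) and chr3:50611725-50612024 (minus strand). The gene-end window is chr17:42312364-42312663 of the same build, plus strand, centred on the summit of replicate 1. Capitals in the CISH sequence mark the word TTCNNNGAA, the palindrome that STAT dimers are known to bind, and the other windows hold none.
IL7R promoter: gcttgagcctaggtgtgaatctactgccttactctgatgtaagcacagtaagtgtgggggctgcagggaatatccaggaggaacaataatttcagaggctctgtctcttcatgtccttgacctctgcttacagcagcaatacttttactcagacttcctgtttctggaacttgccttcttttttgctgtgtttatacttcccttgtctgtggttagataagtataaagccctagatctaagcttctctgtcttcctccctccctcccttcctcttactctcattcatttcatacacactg
IL2RG promoter: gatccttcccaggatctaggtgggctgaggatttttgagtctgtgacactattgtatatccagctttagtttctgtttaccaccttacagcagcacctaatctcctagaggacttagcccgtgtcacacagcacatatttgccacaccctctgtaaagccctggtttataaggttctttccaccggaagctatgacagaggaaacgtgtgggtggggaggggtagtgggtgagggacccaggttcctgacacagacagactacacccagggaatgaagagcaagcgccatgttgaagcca
CISH promoter: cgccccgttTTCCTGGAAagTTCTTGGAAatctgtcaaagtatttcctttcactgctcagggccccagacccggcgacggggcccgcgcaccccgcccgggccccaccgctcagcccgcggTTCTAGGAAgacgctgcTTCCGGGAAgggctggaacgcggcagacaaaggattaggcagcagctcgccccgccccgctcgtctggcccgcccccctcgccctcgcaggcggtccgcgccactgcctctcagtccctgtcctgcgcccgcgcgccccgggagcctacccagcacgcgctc
STAT5A-STAT3 gene-end window: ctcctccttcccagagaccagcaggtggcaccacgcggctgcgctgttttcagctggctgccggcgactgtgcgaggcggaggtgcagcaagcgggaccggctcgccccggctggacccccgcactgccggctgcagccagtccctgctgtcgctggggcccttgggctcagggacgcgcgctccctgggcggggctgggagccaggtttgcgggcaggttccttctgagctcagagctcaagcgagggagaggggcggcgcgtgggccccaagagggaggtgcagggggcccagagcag

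NUDT21 peaks lay at the promoters of 8 of the 10 genes in both replicates, against 57.0% of all protein-coding genes. JAK1 had promoter peaks in replicate 1 only, and IL7R had no peak of any kind in either replicate, as did 25.2% of all genes. The 10 genes had a median of 10 annotated starts, against 5 over all genes, which gives them more places to be counted. Under the narrower condition that a peak covers the canonical start, 4 genes qualified in both replicates (IL2RG, JAK3, STAT3 and CISH), against 33.9% of all genes. In replicate 1 alone the canonical start was covered in 9 of the 10 genes, against 54.6% of all genes, and in replicate 2 in 4, against 34.7%. Of the 10942 genes covered in replicate 1, 62.1% were covered in replicate 2 as well.

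The fold value of a peak is its enrichment over the local control level at the summit, and it was ranked within each replicate as the percentage of that list with a lower fold. At each gene's strongest promoter peak, this percentile had a median of 92.8 over the 9 genes with a promoter peak (mean of replicates where both had a peak), against 74.3 over all 14156 genes with one. The strongest of several peaks can rise with the number of starts, a median of 10 for the 10 genes and 5 for all genes. The part of start number in this difference was not tested. The replicates gave medians of 90.5 and 92.0 for these genes and 82.2 and 77.9 for all. Between replicates the percentile of a gene moved by a median of 9.59 points for the 8 genes with both values, and by 8.25 points for all 11425 such genes. IL2RG, JAK3, the 3 STAT genes and CISH had means of 89.0 or more, and SOCS1, PIM1 and JAK1 lay below the median of all genes. The means of JAK3, STAT5A and SOCS1 join different sites in the replicates. For STAT5A these were the gene-end site described below in replicate 1 and chr17:42282813-42284785, with its summit in a STAT5B intron, in replicate 2. The peaks at or just after the canonical STAT5A start had percentiles of 83.6 and 59.7.

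**Figure D1:**
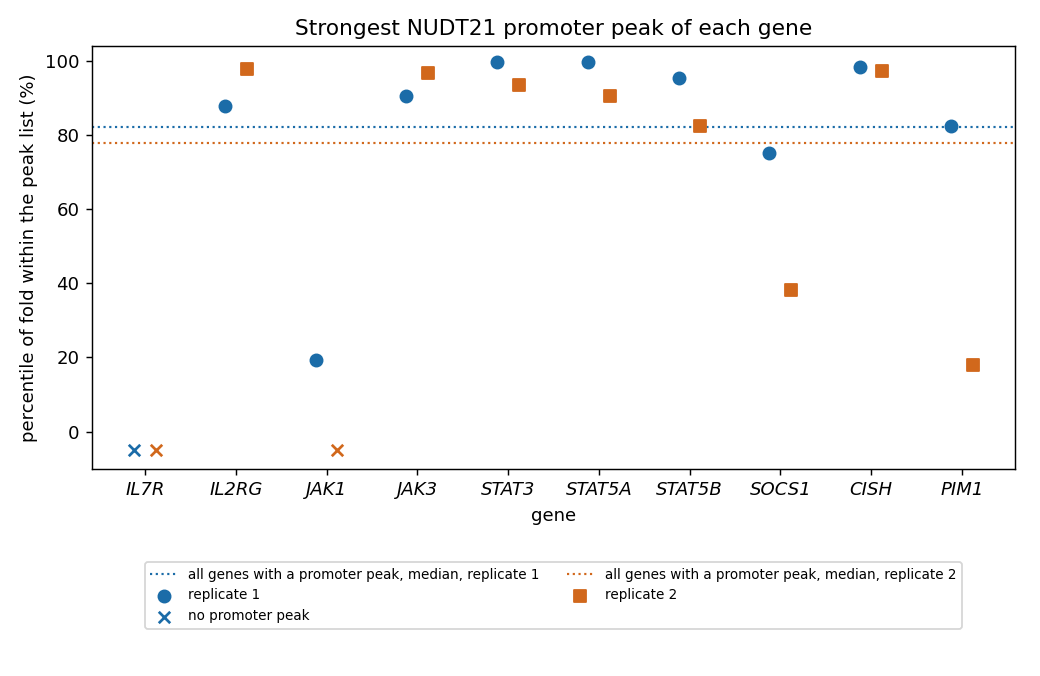
Fold percentile (y axis, percent of the replicate's peak list with a lower fold) of the strongest promoter peak of each of the 10 genes (x axis), with replicate 1 as circles, replicate 2 as squares, crosses for no promoter peak and dotted lines for the medians of all genes (82.2 and 77.9). SOCS1 and PIM1 fell to 38.3 and 18.1 in replicate 2, while CISH stayed at 98.4 and 97.4.

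The median peak of replicate 2 held 19 fragments at the summit, against 29 in replicate 1. Fragments are given before a scale of 0.92138 in replicate 1 and 1 in replicate 2, and control levels on the scaled axis. At 17172 summits that the replicates placed within 50 bp of each other, replicate 2 had a median of 0.592 of the fragments and 0.617 of the control level of replicate 1. What the control level was derived from is not given, so its ratio cannot be read as a measured difference in background. Among the peaks of the 10 genes, 36 of 63 in replicate 1 (57.1%) touched a peak of replicate 2, and 43 of 48 in replicate 2 (89.6%) touched one of replicate 1. Over all peaks on the assembled chromosomes these shares were 56.4% and 85.7%. The peaks of these genes held 13 to 123 fragments in replicate 1 and 9 to 60 in replicate 2.

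IL7R, the ligand-binding chain, lies on chr5:35852695-35879603 (GRCh38, plus strand) with 9 annotated starts, and no peak lay at a start, in the body or past the end. In replicate 1 the nearest peaks were 922423 bp upstream, at DNAJC21, and 260396 bp downstream, at LMBRD2. In replicate 2 they were 937115 bp upstream, near RAD1 and BRIX1, and 272272 bp downstream, near LMBRD2 and SKP2. The gene thus sat inside a stretch without peaks in both lists.

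This stretch measured 1209726 bp in replicate 1 and 1236294 bp in replicate 2. Of the gaps between neighbouring peaks, 0.447% and 0.686% were longer (414 of 92698 and 457 of 66647). This count includes gaps across centromeres and other unassembled sequence. A long gap holds more bases than a short one, so these are not shares of the genome or of genes. The share of genes in gaps this long was not computed, so the stretch cannot be called unusual for a gene. The stretch at IL7R held 7 protein-coding genes in replicate 1, AGXT2, PRLR, SPEF2, IL7R, CAPSL, UGT3A1 and UGT3A2, and BRIX1 and DNAJC21 as well in replicate 2. The promoter printed above contains 44.3% G and C and no CG dinucleotide, and 11.6% of the 22199 promoters are poorer in G and C. The median promoter has 62.3%. The absence of a peak is a statement about the lists, whose lowest −log10 q was 2.00 in each replicate, and the signal below that limit was not analysed here.

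IL2RG, the common gamma chain shared by several interleukin receptors, lies on chrX:71107404-71112108 (minus strand) and carried a single peak in each replicate. In replicate 1 it spanned chrX:71111173-71111613 with a fold of 6.28 and 33 fragments at the summit (95% Poisson interval 22.7 to 46.3) over a control level of 4.0. In replicate 2 it spanned chrX:71111160-71111640 with a fold of 9.60 and 30 fragments (20.2 to 42.8) over 2.23. Both peaks covered the canonical start, and the summits lay 147 and 163 bp past it, inside an annotated coding exon of the gene and 16 bp apart. The fragment intervals of the replicates overlapped, and the percentile was 92.8 ± 7.16 (SD, n = 2), the higher value being in replicate 2. The readthrough gene ENSG00000285171 shares this start region, so the peaks cannot be assigned to IL2RG alone. Its promoter is poor in G and C as well (50.3%, with 4 CG dinucleotides), so the chains of the receptor share a low content and differ in peaks.

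JAK1, the kinase that associates with IL7R, had 2 promoter peaks in replicate 1 and none in replicate 2. The peak over its canonical start, chr1:64966076-64966751 (gene on the minus strand, chr1:64833223-65067754), held 63 fragments (48.4 to 80.6), more than the start peaks of IL2RG or JAK3. Its control level was also the highest of any peak of the 10 genes, 19, so the fold was only 2.95, at percentile 17.7. The other peak, chr1:64847688-64848014, had a fold of 3.0 with 26 fragments over 7.31, and it lay 118684 bp into the gene at an internal start. Peaks of replicate 1 with a similar −log10 q touched a peak of replicate 2 in 65.9% of cases for the first and 36% for the second, each taken over the tenth of the list that held the peak. The JAK1 promoter contains 74.7% G and C with 6 GC boxes (GGGCGG, either strand, present in 56.3% of promoters), the opposite base composition to IL7R.

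JAK3, the kinase carried by IL2RG, held 13 peaks in each replicate, spread along the gene on chr19:17824780-17848071 (minus strand). These peaks covered 55.6% of the gene in replicate 1 and 33.1% in replicate 2. All 13 peaks of replicate 2 touched one of replicate 1, and 8 of the 13 of replicate 1 touched one of replicate 2. Since the gene has 11 starts spread along its body, 10 of the peaks in each replicate counted as promoter peaks.

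At the canonical start of JAK3, the fold was 6.47 in replicate 1 with 34 fragments (23.5 to 47.5) and 4.64 in replicate 2 with 14 fragments (7.65 to 23.5). The summits lay 82 and 77 bp past the start, 5 bp apart. This start peak was not the highest at the gene in either replicate. The highest promoter peak was 13255 bp into the gene in replicate 1, with a fold of 6.76 and 35 fragments, a number inside the interval of the start peak. In replicate 2 it was 15205 bp into the gene, with a fold of 8.67 and 27 fragments. The percentile of 93.6 ± 4.33 (SD, n = 2) therefore joins different sites. At the far end, peaks with folds of 5.08 and 5.39 had summits 120 bp past and 51 bp before the annotated gene end, and a start of INSL3 lies within 3000 bp of the former.

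**Figure D2:**
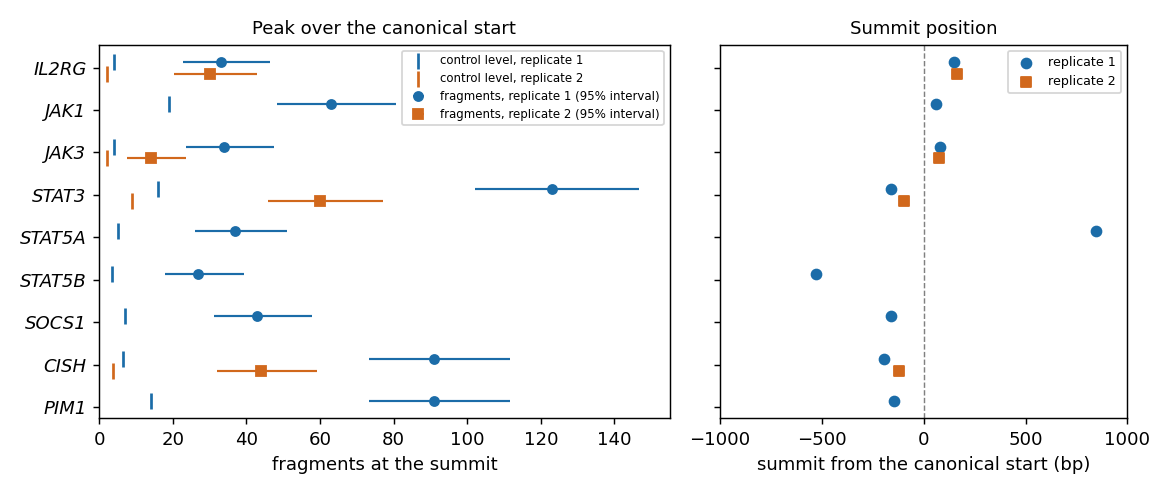
Left, fragments at the summit of the peak over the canonical start (x axis) with exact 95% Poisson intervals, and the control level as a vertical tick, for the 9 genes with such a peak in replicate 1 (circles) or replicate 2 (squares). Fragments of replicate 1 are drawn before the scale of 0.92138, and its control levels are on the scaled axis. Right, the position of the summit relative to that start in bp, close to it for all peaks shown except those of STAT5A (844 bp after) and STAT5B (529 bp before).

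STAT3, the transcription factor best known downstream of interleukin-6 type receptors, had the most fragments at a start of the 10 genes. Its start peak spanned chr17:42387777-42389107 in replicate 1 with a fold of 6.73 and 123 fragments (102 to 147), and chr17:42387822-42389221 in replicate 2 with a fold of 6.15 and 60 fragments (45.8 to 77.2). The summits lay 158 and 95 bp before the start, 63 bp apart. The control level was high as well (16.0 and 8.91), so the percentiles of 90.4 and 85.9 stood below those of CISH, which had fewer fragments. In all, the gene (chr17:42313324-42388540, minus strand) held 20 peaks in replicate 1 and 13 in replicate 2, of which 13 and 11 touched a peak of the other replicate.

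STAT5A and STAT5B, the near-identical paralogs that carry most of the interleukin-7 signal, lie head to head with overlapping 5′ ends, STAT5A on chr17:42287547-42311943 (plus strand) and STAT5B on chr17:42199176-42288633 (minus strand). Peaks around the overlapping 5′ ends were therefore counted for both genes, and those nearer the canonical STAT5B start for STAT5B only. Over the canonical STAT5A start, replicate 1 had a peak with a fold of 5.77 and 37 fragments (26.1 to 51.0), whose summit lay 844 bp inside the gene. The matching peak of replicate 2, with a fold of 4.57 and 18 fragments, had its summit 791 bp inside the gene but began 190 bp after the start. A second shared peak lay 988 and 915 bp before the STAT5A start, with folds of 5.77 and 4.31. STAT5A held 8 peaks in replicate 1 and 10 in replicate 2, which covered 60.6% and 49.2% of the gene.

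At the canonical start of STAT5B, which lies inside the gene on the far side of these peaks, the replicates differed. In replicate 1 a peak at chr17:42275561-42277981 covered it, with a fold of 5.74, at percentile 83.4. In replicate 2 the peak at chr17:42276622-42278010 stopped 231 bp short of it, with a fold of 3.37, at percentile 21.2. The highest STAT5B peaks of both replicates that counted as promoter peaks were instead at chr17:42201563-42202899 (fold 8.33, 37 fragments) and chr17:42201637-42202824 (fold 5.81, 21 fragments), beside an internal start and 3108 and 3288 bp before the gene end. STAT5B held 17 and 11 peaks, of which 9 in each replicate touched one of the other.

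In replicate 1 the highest fold among the peaks of the 10 genes was at none of their canonical starts but in the 1380 bp between the convergent ends of STAT5A and STAT3. It belonged to a peak of 8922 bp, chr17:42305594-42314515, with a fold of 17.3 (rank 346 of the list, percentile 99.6) and 94 fragments (76.0 to 115) over a control level of 4.06. In replicate 2 the peak at this site measured 2824 bp, chr17:42311703-42314526, with a fold of 7.42 (rank 4532, percentile 93.4) and 25 fragments (16.2 to 36.9) over 2.51, below the start peaks of IL2RG and CISH. The summits were 10 bp apart, and in both replicates they lay outside every annotated gene, 571 and 561 bp past the STAT5A end and 810 and 820 bp past the STAT3 end.

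This site set the strongest promoter peak of STAT3 in both replicates and of STAT5A in replicate 1. The peak of replicate 1 covered a minor start of STAT5A. For STAT3 the peak edges were 3000 and 2989 bp from the nearest start, at the limit of the rule, and the summits 5001 and 5011 bp from it. Without peaks whose summit lies within 1000 bp of a member's gene end, an alternative chosen after the data were seen, the median percentile of the 9 genes was 89.0. The window printed above contains 72.3% G and C, against a median of 59.3% and 59.0% for windows of this length around all summits of replicates 1 and 2. It holds no TGTA on either strand, the DNA form of the word that NUDT21 binds in RNA, which occurs in 63.6% and 64.3% of all summit windows, and no TTCNNNGAA.

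**Figure D3:**
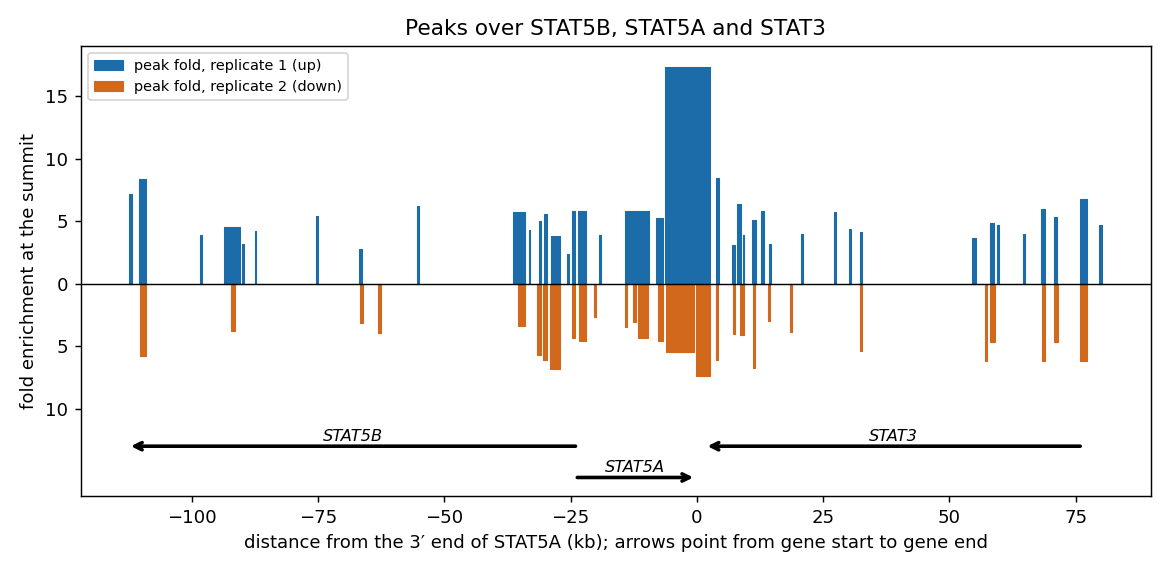
Peaks over STAT5B, STAT5A and STAT3, with distance from the STAT5A end in kb on the x axis and fold at the summit on the y axis (replicate 1 upward, replicate 2 downward), drawn over the full width of each peak, and arrows for the genes from start to end. The tallest block, with a fold of 17.3 in replicate 1 and 7.42 in replicate 2, stands where the STAT5A and STAT3 arrows meet.

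Gene-end peaks, with a summit within 1000 bp of the annotated end, were present in both replicates at 3 of the 10 genes (JAK3, STAT3 and STAT5A), against 12.9% of all genes, and STAT3 and STAT5A share 1 site. STAT5B had one in replicate 1 only (fold 7.16, summit 616 bp before the end). Gene-body peaks away from the gene's own starts were present in both replicates at 5 genes (JAK3, STAT3, STAT5A, STAT5B and CISH), against 28.6% of all genes. At STAT5A this count rests on different sites, since its gene-body peak of replicate 1, chr17:42292530-42292914, touched no peak of replicate 2. Some gene-body peaks lie near a start of a neighbouring gene, among them that of CISH in replicate 2, near MAPKAPK3. Introns of these or overlapping genes held 39 of the 63 summits in replicate 1 and 28 of the 48 in replicate 2. In 30 of the 111 peaks more than 50% of the 31-base words occurred more than once in the genome, up to 93.3%, and their part in the peak calls was not tested. The share was 5.68% in the 8922 bp peak and 0 at SOCS1 and CISH. For intron summits and repeated words no share over all peaks is given, so neither can be called particular to these genes.

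SOCS1, an inhibitor that blocks JAK kinase activity, is a compact gene on chr16:11254417-11256204 (minus strand) whose promoter peaks did not coincide between replicates. Replicate 1 had a peak over the canonical start, chr16:11255406-11256679, with a fold of 5.08 and 43 fragments (31.1 to 57.9), and one further upstream, chr16:11257309-11257760, with a fold of 5.09 and 28 fragments. Replicate 2 had 1 peak, chr16:11258633-11258990, with a fold of 3.87 and 13 fragments (6.92 to 22.2), and its edge was 2429 bp from the start. The closest peaks of the replicates were separated by 872 bases, so the count of SOCS1 as a gene with promoter peaks in both replicates rests on different sites, and the 3 summits lay in an intron of the overlapping gene RMI2. Peaks of replicate 1 with a similar −log10 q to its start peak touched a peak of replicate 2 in 88.8% of cases. The percentile was 56.7 ± 26.1 (SD, n = 2).

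CISH, an inhibitor that competes with STAT5 for the phosphorylated receptor and a classical STAT5 target, had the highest start peaks of the 10 genes in replicate 1, and in replicate 2 only the IL2RG start peak was higher. On chr3:50606489-50611774 (minus strand), replicate 1 had a peak at chr3:50609223-50612700 with a fold of 11.5 (rank 1534) and 91 fragments (73.3 to 112) over a control level of 6.37. Replicate 2 had one at chr3:50610365-50612644 with a fold of 9.20 (rank 1809) and 44 fragments (32.0 to 59.1) over 3.89. The summits lay 193 and 119 bp before the start and 74 bp apart, and the percentile of 97.9 ± 0.750 (SD, n = 2) was the most even of the 8 genes with both values. A MAPKAPK3 start lies within 3000 bp of these peaks, so the signal cannot be assigned to CISH alone.

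The CISH promoter printed above holds 4 copies of TTCNNNGAA, which reads the same on both strands, beginning 241, 230, 129 and 112 bases before the start. At least 1 copy occurs in 6.79% of the 22199 promoters, at least 2 in 0.338% and at least 4 in 0.0225%, and the promoters of the other 9 genes hold none. Both summits fall between the outer copies. The copy nearest the start overlaps the only ETS word (CCGGAAG, either strand, in 12.8% of promoters). These matches describe the letters of the window, and STAT binding was not measured.

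PIM1, the survival kinase among the targets, lies on chr6:37170152-37175428 (plus strand) and showed the widest spread between replicates. In replicate 1 a peak at chr6:37169219-37171687 covered the start with a fold of 5.66 and 91 fragments (73.3 to 112) over a control level of 14, its summit 147 bp before the start. In replicate 2 the peak at chr6:37171210-37171663 began 1058 bp after the start, with a fold of 3.27 and 15 fragments (8.40 to 24.7) over 3.90, and its summit lay 1188 bp into the gene, in coding sequence. The peak of replicate 2 lies wholly inside that of replicate 1, near its far end, and the summits are 1335 bp apart. The percentile was 50.2 ± 45.4 (SD, n = 2), so PIM1 cannot be placed high or low among promoters. Its start peak in replicate 1 held as many fragments as that of CISH over a control level of 14 in place of 6.37.

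**Figure D4:**
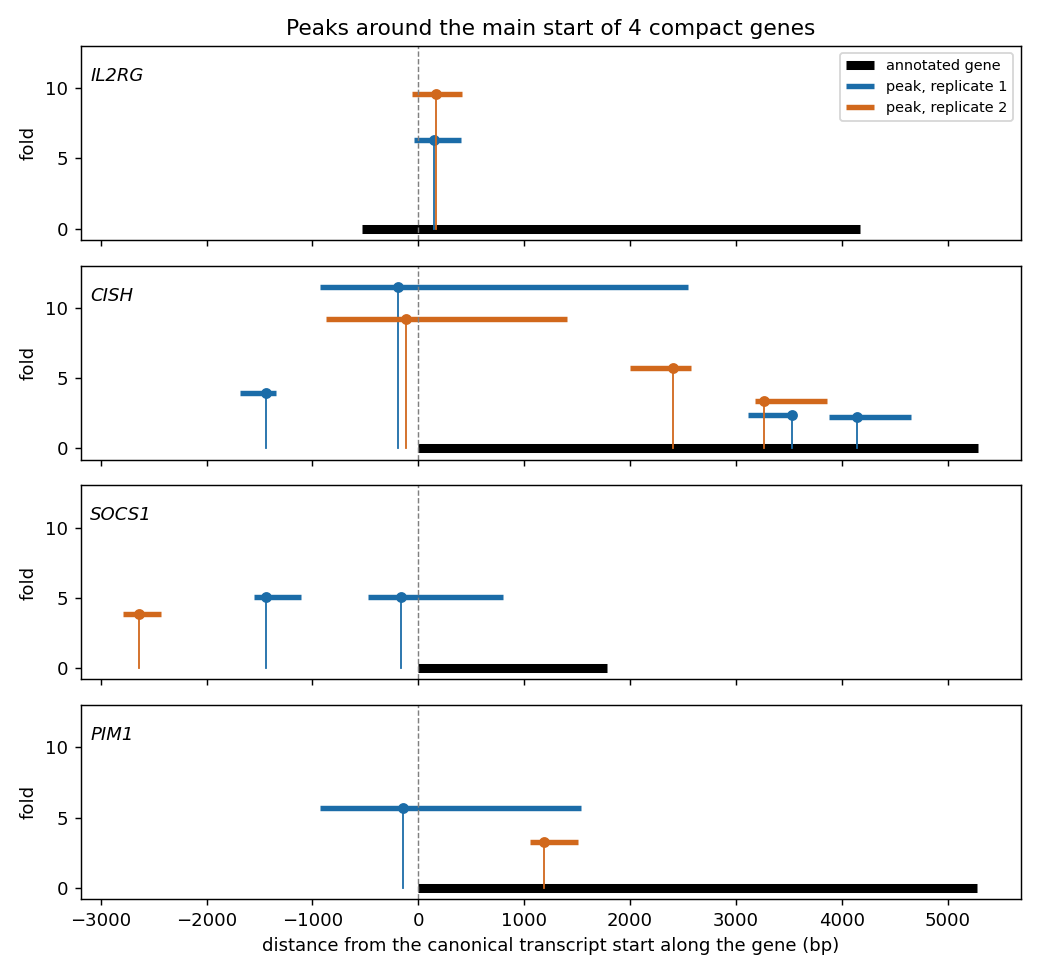
Peaks at 4 compact genes by distance from the canonical start in bp along the gene (x axis) and fold at the summit (y axis), with horizontal bars for peak widths, dots and stems for summits, and a black bar for the annotated gene. The replicates coincide at the starts of IL2RG and CISH (summits 16 and 74 bp apart) and not at SOCS1 and PIM1 (2478 and 1335 bp apart).

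The other genes of the pathway, a list of 57 ligands, receptors, kinases, STATs, inhibitors and targets, had promoter peaks in both replicates in 37 cases, in replicate 1 only in 8 and in neither in 12, where 57.0% of all protein-coding genes had them in both. None of the 7 ligands (IL7, IL2, IL4, IL9, IL15, IL21 and TSLP) had a peak. Peaks in both replicates were found at 13 of 18 receptors, 2 of 2 further kinases, 4 of 4 further STATs, 10 of 16 inhibitors and 8 of 10 targets. Besides the ligands, the receptors CRLF2 and IL12RB2, the inhibitor SOCS6, the phosphatase PTPRC and the repressor BCL6 had no promoter peak.

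The strongest promoter peak of the 45 pathway genes with one had a median percentile of 80.3. The highest were at inhibitors: PIAS4, which binds STAT proteins, with folds of 23.2 and 20.1, and the phosphatases PTPN6 and PTPN1, with folds of 14.7 and 14.1 and of 14.1 and 10.3. All of these exceeded the start peak of CISH in percentile. The lowest were SOCS2 (fold 2.26, replicate 1 only), JAK2 (2.76 and 2.59) and the interferon receptor chain IFNGR1 (2.58, replicate 1 only).

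**Figure D5:**
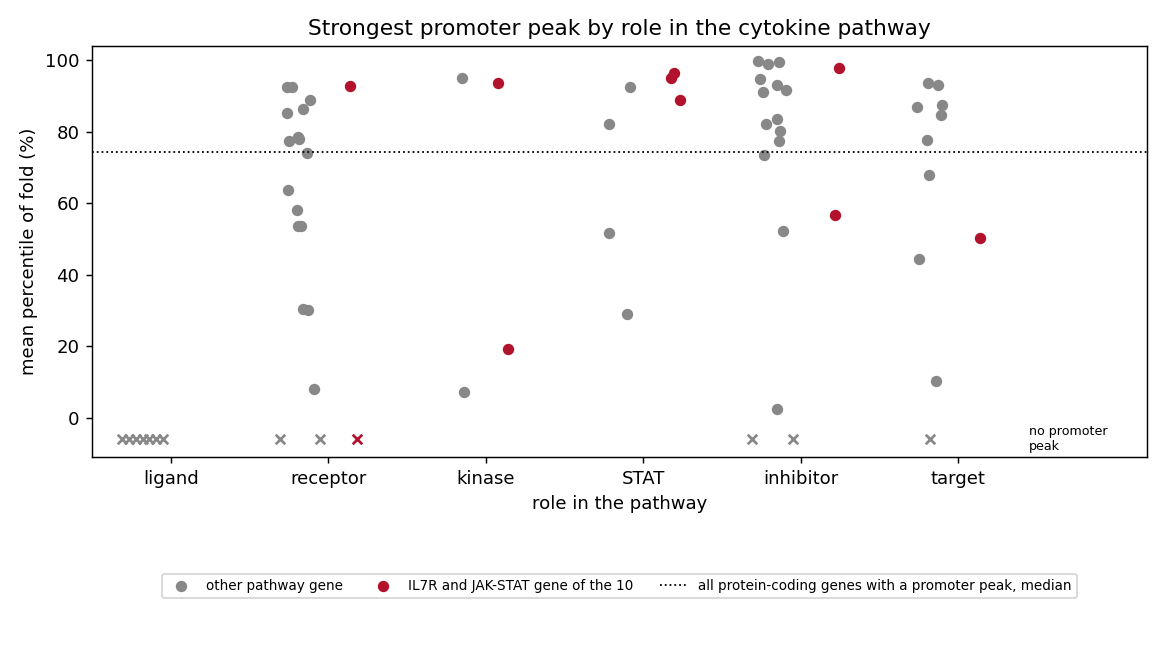
Mean fold percentile of the strongest promoter peak (y axis) for the 10 genes (red) and the 57 other pathway genes (grey) by role (x axis), with crosses for no promoter peak and a dotted line for the median of all genes, 74.3. Where 1 replicate had a peak, its value is plotted, and all 7 ligands are crosses.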

How the data were processed

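NUDT21 CUT&Tag was done by the authors in 2 biological replicates of J.gamma1 cells. Per the methods and the submitters' processing notes, reads were trimmed with fastp, aligned to hg38 with Bowtie2 2.2.5, stripped of duplicates with Picard, and peaks were called with MACS3 3.0.1, separately for each replicate. A control library for peak calling is not given in the sources used here. The deposited peak lists hold, for each peak, the fold enrichment at the summit, −log10 p and −log10 q from the authors' peak caller.

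Peaks were joined to GENCODE 44 (hg38, as in the files) with Python 3.11.15, NumPy 2.4.6, SciPy 1.17.1 and pandas 2.3.3. Fold is comparable only within a list, so it was ranked there. Fragments and control level at the summit were solved from fold, with its pseudocount of 1, and −log10 p, to a relative tolerance of 0.0002, for 99.98% and 99.997% of peaks. The solution multiplied fragments by a scale under which nearly all peaks were solved, 0.92138 in replicate 1 and 1 in replicate 2. Fragments are printed before this scaling and control levels on the scaled axis, so the printed values of replicate 1 give the fold only with the scale. Whether MACS3 counted fragments or extended reads is not given in the sources used here. The intervals are exact 95% Poisson intervals and cover counting error only. Total read depth is unknown, and means ± SD rest on n = 2. The steps were tested on simulated data.

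All values are descriptions, since the design holds 1 group. Repeated words are stretches of 31 bases found more than once on the assembled chromosomes. The text names all 10 genes, the pathway genes without a promoter peak, those with the 3 highest and 3 lowest mean percentiles, and genes with a start near a member's peak. The genes and lists were chosen with earlier results of these data known.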

Additional observations from a re-analysis of the deposited data

How the results depend on the processing

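When each list was limited to its top 10000 peaks by −log10 p, promoter peaks in both replicates remained at 4 of the 10 genes (JAK3, STAT3, STAT5A and CISH) in place of 8, gene-body peaks at 0 in place of 5, and promoter peaks at 15 of the 57 other pathway genes in place of 37, with a median percentile of 95.41 in place of 92.79. The median was 88.92 with promoters within 1000 bp, 87.08 with starts of protein-coding transcripts only, 88.96 with summits in place of edges, 88.31 when ranked by −log10 p and 84.22 by fragments. Gene-end peaks numbered 1 within 300 bp and 5 within 3000 bp, in place of 3. Without replicate 1 or 2 the median ranged from 90.53 to 91.99. Of the alternatives chosen after the data were seen, requiring a peak over the canonical start left 4 genes, and leaving out gene-end peaks gave a median of 88.96. The causes were not tested. With −log10 q of at least 5, promoter peaks stayed in both replicates at 6 genes, without SOCS1 and PIM1. With a reciprocal overlap of 50% between the replicates' peaks, promoter peaks stayed at 6 genes, again without SOCS1 and PIM1. Under that condition gene-body peaks stayed at 4 genes, without STAT5A. Leaving out 1 replicate gave 8 to 9 genes with promoter peaks. Apart from the canonical-start count and the medians of single replicates, no value over all genes is given for these settings. They show how the counts and medians of these genes moved, and not whether the genes differ from all genes under each setting. No paired analysis was possible because the design holds 1 group only. Total read depth is unknown, so whether it bears on the peaks found in replicate 1 alone was not tested.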
